A study of Mus musculus with 2 samples.

Results

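Thy1, Car3, Dpt, Dcn, Lum, Mfap4, Mfap5, Pi16, Pdgfra and Ogn are marker genes of fibroblasts and of the adventitia, the outer connective tissue coat of a tubular organ. These 10 genes were chosen by name among the 29924 gene names of the array, and each was represented by 1 probe. They were measured in explants of the newborn mouse ureter after inhibition of WNT secretion with IWP-2, an inhibitor of PORCN, the acyltransferase that attaches the lipid which WNT ligands need for release. All pools came from wildtype NMRI mice of postnatal day 0 (P0), and the ureters were kept on transwell membranes for 18 h with 5 µM IWP-2 or, in the control, with the solvent DMSO. The study asked which genes of the lamina propria (LP), the connective tissue below the urothelium, need WNT signaling. The 2 microarrays carried 2 dyes each, with 1 control pool and 1 IWP-2 pool of several whole ureters on every array. Replicate 1 was female with IWP-2 in the red channel, and replicate 2 was male with IWP-2 in the green channel, so dye and sex cannot be told apart.

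Fibroblasts of a hollow organ build the collagen and elastic networks of its wall, and those of the LP and of the adventitia differ in the surface proteins and matrix proteins that they make. WNT ligands reach such cells from neighbouring cells and, through β-catenin, raise feedback genes such as Axin2. The 10 genes fall into 4 groups by what they encode. Thy1 encodes the GPI-anchored surface protein CD90, Pdgfra encodes a receptor of platelet-derived growth factors, and Pi16 encodes a peptidase inhibitor that marks adventitial fibroblasts in many organs. Dcn (decorin), Lum (lumican) and Ogn (osteoglycin) encode small leucine-rich proteoglycans that bind collagen fibrils. Dpt (dermatopontin), Mfap4 and Mfap5 encode matrix proteins, the latter 2 of microfibrils and elastic fibres. Car3 encodes carbonic anhydrase 3, an enzyme that is abundant in fat cells and skeletal muscle and is also found in some fibroblasts.

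The probes that carry the results were those of Thy1 and Car3, whose signals moved most, and those of Dcn and Lum, which are neighbours on their chromosome and did not move as far. Each probe was 60 bases long, and its first 30 bases are shown as the array files give them, with positions in mm9, the build that the files name.
Thy1, chr9:43856591-43856650: taataccaccactgctacagcatctcaccg
Car3, chr3:14871781-14871840: acatgcaaccgcagtgccttttgacatgat
Dcn, chr10:96980233-96980292: aacaccttcagatgtgtctatgtgcgttct
Lum, chr10:97035210-97035269: taagcatttgcacggttacttagtgaaact
The files assign these probes to the transcripts of the named genes and do not say which exon they lie in. The longest run of bases that any pair of the 10 probes shared was 9, so no probe of the group repeated the sequence of another. The remaining probes lay on chromosome 5 (Pdgfra), 17 (Pi16), 13 (Ogn), 1 (Dpt), 11 (Mfap4) and 6 (Mfap5).

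All 10 genes were well above background in the 4 channels. Their normalized signals, in arbitrary units, ranged from 833 for Pi16 to 31358 for Dcn, both in the control pool of replicate 1. Signals of different probes are not comparable as amounts of RNA, and the arrays were not scaled to each other, so levels set across replicates are descriptive. Smooth muscle markers (8 of 8) and urothelial markers (8 of 8) were also well above background in every channel, as the label ureter requires. The scanner software had marked 3.32% (replicate 1) and 3.22% (replicate 2) of the spots as outliers, and leaving these out removed 1 of the 4 spots of Dpt and 1 of the 4 spots of Pi16 in replicate 1.

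None of the 10 genes passed the limma test, which covered 14336 genes whose mean signal exceeded 100 in control or IWP-2 pools, at a Benjamini-Hochberg adjusted p of 0.05. Among all genes tested, 0.886% (127) were called lower with IWP-2 and 0.363% (52) were called higher. At an unadjusted p below 0.05, 2 of the 10 genes (Thy1 and Car3) were lower and 0 were higher, against 6.64% of all genes lower and 6.27% higher. By the filter of the study, a control signal above 100 and a change of 1.5-fold in both arrays, again 0 of 10 were lower and 0 were higher, against 0.363% lower and 0.0783% higher of the 14051 genes with such control signals. Thy1 and Car3 exceeded 1.5-fold in replicate 1 and neither did so in replicate 2. The mean log2 ratio of IWP-2 over control lay between −0.2 and 0.2 for the other 8 genes, as it did for 88.1% of all genes tested. The median over the 10 genes was −0.07 and that over all genes was −0.01.

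**Figure D1:**
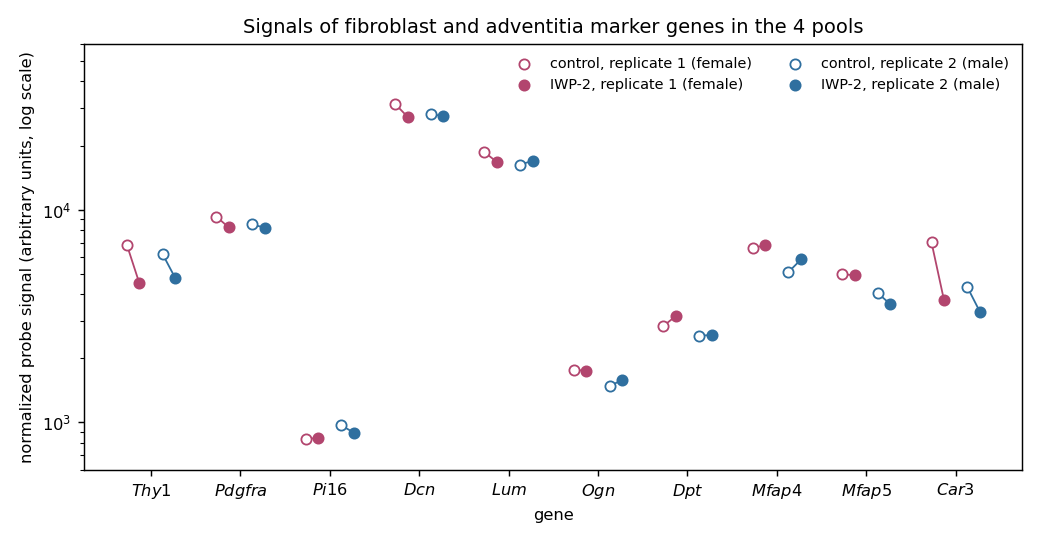
Normalized probe signal (arbitrary units, log scale) of each gene in the 4 pools, with open circles for control, filled circles for IWP-2 and a line joining the pools of 1 array. The lines of Thy1 and Car3 slope down in both arrays, and those of the other genes are close to level.

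In replicate 1, Thy1 gave 6828 units in control ureters and 4502 with IWP-2, and in replicate 2 it gave 6171 and 4778. Both IWP-2 pools were thus lower than both control pools, in signals of arrays that were not scaled to each other. The share of all genes with such an order was not counted. The change was −34.1% in replicate 1 and −22.6% in replicate 2. The mean log2 ratio was −0.48 (SE 0.081, 95% interval −0.68 to −0.29, n = 2 arrays) with a limma adjusted p of 0.0547, just above the threshold. The ratio lay below 0 for each of the 8 Thy1 spots, from −0.63 to −0.55 in replicate 1 and from −0.42 to −0.35 in replicate 2. Whether Thy1 is called depends on the processing, since the adjusted p was under 0.05 in 5 of 17 alternative settings, and the direction was the same in all of them. In bulk tissue, fewer cells of a type and less RNA per cell cannot be told apart.

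Thy1 is also known from neurons and T cells, so the markers of these cells were examined beside it. Among the T cell markers, Cd3d, Cd3g, Cd2 and Cd28 lay at the floor of 15 in all channels, and the summed signal of the 6 markers was 402 to 472 in the control pools and 420 to 455 in the IWP-2 pools. Their brightest genes, Lck (a T cell receptor kinase) and Cd3e (a receptor subunit), had log2 ratios of 0.01 and −0.03, and of 0.24 and −0.15. For the 8 neuron markers the sum was 3265 to 3316 in the control and 2967 to 3240 in the IWP-2 pools, 7 of 8 had a mean below 0, and 0 of 8 were called by limma (2 were lower at an unadjusted p below 0.05). Snap25, the gene of a synaptic vesicle fusion protein, had log2 ratios of 0.03 and −0.07, and Stmn2, which encodes the microtubule regulator stathmin 2, had −0.08 and −0.30. The lowest means of the list were those of Tubb3 (−0.45 and −0.13) and Prph (−0.29 and −0.20). The part of the neuron markers in the change of Thy1 was not tested.

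In replicate 1, Car3 gave 7004 units in control ureters and 3746 with IWP-2, and in replicate 2 it gave 4326 and 3317. The control pool of replicate 1 stood apart, and the control of replicate 2 was closer to the IWP-2 pools. The IWP-2 values were below both control values, an order that is descriptive here as for Thy1. The control signals differed 1.62-fold between the replicates and the IWP-2 signals 1.13-fold. The change was −46.5% in replicate 1 and −23.3% in replicate 2, and the mean log2 ratio was −0.64 (SE 0.12, 95% interval −0.94 to −0.35, n = 2 arrays; limma adjusted p = 0.0779). The 8 spots gave ratios from −0.92 to −0.88 in replicate 1 and from −0.41 to −0.36 in replicate 2. The spots of 1 array thus lay close together, and the 2 arrays differed by 0.52 on the log2 scale, above the 95th percentile of all genes tested (0.38).

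Because Car3 is abundant in fat and skeletal muscle, those markers were examined as well. Of the 12 adipocyte markers, Cidec, Lep and Ucp1 lay at the floor in all channels. The sum over the list was 23782 to 25044 in the control and 30639 to 30800 in the IWP-2 pools. Most of this sum came from Fabp4, Lpl and Pparg, so its rise says little on the dimmer markers. Of the 6 markers tested, all had a mean above 0, and 0 were called by limma. At an unadjusted p below 0.05, 3 were higher, against 6.27% of all genes. The brightest were Fabp4, a fatty acid-binding protein gene, with log2 ratios of 0.25 and 0.28, and Lpl, the lipoprotein lipase gene, with 0.31 and 0.68. Pparg had 0.45 and 0.26. The adipokine gene Adipoq, picked after its values were seen, followed another course. It had signals of 300.2 (control) and 205 (IWP-2) in replicate 1 and of 66.3 and 175 in replicate 2, with its highest signal in the control pool of replicate 1, as for Car3. Cfd (adipsin) was likewise highest in that pool, at 274 against 150 with IWP-2, and was 19.7 and 180 in replicate 2. Every other marker of the list above the floor was highest in an IWP-2 pool. Of these, Lpl (1.51-fold), Plin1, Retn, Cidea and Lipe had a higher control signal in replicate 1 than in replicate 2. Fabp4 and Pparg had a lower one. Plin1 gave 23.1 (control) and 32.7 (IWP-2) in replicate 1 and 15 and 32.2 in replicate 2. Retn gave 31.8 and 39.1, and 15 and 33.7, so both were near the floor. The 8 skeletal muscle markers summed to 7535 (control) and 6842 (IWP-2) in replicate 1 and to 5224 and 5826 in replicate 2. Their highest sum was thus also in the control pool of replicate 1. Myod1, which encodes the myogenic transcription factor, lay at the floor throughout. The brightest of them, Acta1 (skeletal actin) and Ckm (creatine kinase, which the study also uses as a smooth muscle marker), had log2 ratios of −0.17 and 0.19, and of −0.10 and 0.11. Between the replicates, their control signals differed 1.47-fold and 1.45-fold and their IWP-2 signals 1.15-fold and 1.26-fold. The part of fat or muscle in the values of Car3 was not tested.

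**Figure D2:**
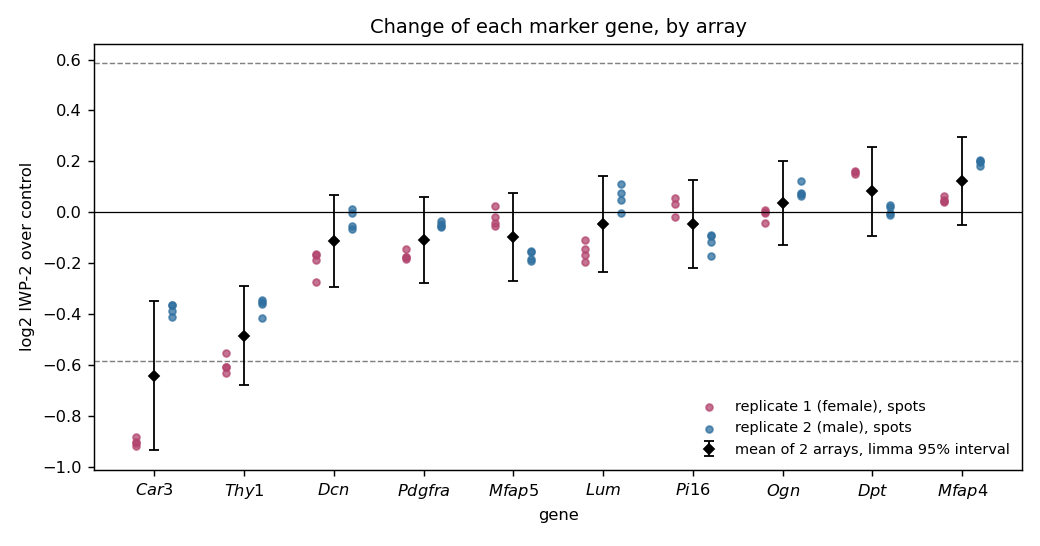
Log2 ratio of IWP-2 over control for every spot kept (circles, by array) with the mean of the 2 arrays and its limma 95% interval (diamonds and bars); dashed lines mark a 1.5-fold change. The intervals of Car3 and Thy1 lie below 0 and those of the other 8 genes include 0.

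Neither of the other surface and secreted markers moved as far. Pdgfra had signals of 9272 (control) and 8243 (IWP-2) in replicate 1 and of 8512 and 8232 in replicate 2, with log2 ratios of −0.17 and −0.05 and a mean of −0.11 (SE 0.071, limma adjusted p = 0.70). Both ratios were below 0, and so were all 8 spots, but the limma interval included 0. Of the 6 genes for ligands and receptors of this pathway (Pdgfra not among them), 0 were called by limma, 1 was lower at an unadjusted p below 0.05, and the median log2 ratio was −0.08. Pdgfrb, which encodes the companion receptor of mural cells, had ratios of −0.15 and 0.00, and the ligand gene Pdgfa had −0.09 and 0.02. Pi16 had signals of 833 and 847 in replicate 1 and of 969 and 893 in replicate 2. Its control pools spanned a wider range than its IWP-2 pools, and the arrays gave opposite directions (0.02 and −0.12, mean −0.05, limma adjusted p = 0.95).

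None of the 3 proteoglycan genes passed the test. Dcn had signals of 31358 and 27290.1 in replicate 1 and of 28031 and 27519 in replicate 2 (control before IWP-2), with log2 ratios of −0.20 and −0.03 (mean −0.11, SE 0.075, limma adjusted p = 0.703). Lum had signals of 18607 and 16710.2 in replicate 1 and of 16273 and 16955 in replicate 2. Lumican thus changed in opposite directions, with ratios of −0.16 and 0.06 (mean −0.05, limma adjusted p = 0.957). Ogn had signals of 1761 and 1751 in replicate 1 and of 1488 and 1576 in replicate 2, and the replicates differed from each other by more than control and IWP-2 did. Its ratios were −0.01 and 0.08 (mean 0.04, limma adjusted p = 0.967).

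Dcn and Lum stand side by side in the genome, followed by the proteoglycan gene Kera, and Ogn stands next to Omd, by the gene order of RefSeq for GRCm38.p6. Kera (keratocan), named for this position, had ratios of 0.47 and 0.35 and a limma adjusted p of 0.0572. Omd (osteomodulin) lay at the floor in all channels. Among the 14 other genes of leucine-rich proteoglycans, 8 were tested, 0 were called by limma, 1 was lower and 3 were higher at an unadjusted p below 0.05, and the median log2 ratio was 0.09. Bgn, which encodes biglycan, had ratios of −0.16 and 0.05, and Aspn, which encodes asporin, had ratios of 0.21 and 0.55 (limma adjusted p = 0.138). Car3 lies between Car1 and Car2 in the same gene order. Car1 lay at the floor. Car2 had ratios of −0.06 and −0.08, and Car4, the gene of a membrane-bound form, had 0.07 and −0.28. Of the 15 other carbonic anhydrases, 6 were tested, 0 were called by limma, 0 had an unadjusted p below 0.05, and the median was −0.01.

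Of the matrix proteins outside the proteoglycans, Dpt and Mfap4 were higher with IWP-2 in both arrays and Mfap5 was lower in both, and none passed the test. Dpt had signals of 2834 and 3161 in replicate 1 and of 2556 and 2571 in replicate 2, with log2 ratios of 0.16 and 0.01 (mean 0.08, limma adjusted p = 0.814). Mfap4 had signals of 6589 and 6815 in replicate 1 and of 5087 and 5827 in replicate 2, with ratios of 0.05 and 0.20 (mean 0.12, limma adjusted p = 0.639). Both pools of replicate 1 gave higher Mfap4 signals than both pools of replicate 2. Mfap5 had signals of 4983 and 4901 in replicate 1 and of 4044 and 3592 in replicate 2, with ratios of −0.02 and −0.17 (mean −0.10, limma adjusted p = 0.761). Mfap5 was also higher in replicate 1 than in replicate 2, whichever the treatment. The arrays were not scaled to each other, so array, dye and sex cannot be told apart in these differences.

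For the 8 genes other than Thy1 and Car3, the limma 95% intervals of the mean log2 ratio lay within −0.29 and 0.30, that is within 1.23-fold in either direction. The change in a single array ran from −13.0% (Dcn, replicate 1) to 14.5% (Mfap4, replicate 2). Over the 10 genes, 7 had a mean below 0 and 3 above, against 53.0% of all genes tested below 0. Of the 10, 5 were below 0 in both arrays, 2 were above 0 in both and 3 had opposite signs. Among all genes tested, 29.1% were below 0 in both arrays, 25.7% were above 0 in both and 45.2% had opposite signs, and the median distance between the arrays was 0.10 on the log2 scale.

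The study counts Thy1 and Car3 themselves among its genes of the LP. Of the 8 further genes of that set, 5 were called lower by limma and 0 higher, against 0.886% and 0.363% of all genes tested. The filter was passed by 3 of them, and the median log2 ratio was −0.70. The study took candidates from these arrays and from arrays of ureters treated with the hedgehog inhibitor cyclopamine. The set holds those that RNA in situ hybridization placed in the LP at P0. Since these arrays took part in the choice, neither the count nor the direction of Thy1 and Car3 is independent evidence. The study lists Bmp4, Foxf1 and Ptch1 as lower with cyclopamine. It lists Thy1, Car3, Aldh1a2, Avpr1a and Itga4 as lower with cyclopamine and with IWP-2. For Thy1 and Car3, its average fold change was larger with cyclopamine. By in situ hybridization of ureters cultured with IWP-2, it reports Thy1 as reduced and does not name Car3 among the reduced genes. Axin2, the WNT feedback gene, fell from a signal of 181 to 42.2 in replicate 1 and from 154 to 46.7 in replicate 2 (mean log2 ratio −1.91, limma adjusted p = 0.000824). Itga4, which encodes integrin α4, fell by 1.56 and 0.81 on the log2 scale (limma adjusted p = 0.0315). Avpr1a, a vasopressin receptor gene, fell by 1.04 and 0.69 (limma adjusted p = 0.0157). Ahr, the gene of the aryl hydrocarbon receptor, fell by 1.01 and 0.53 (limma adjusted p = 0.0392). Aldh1a2, the gene of a retinoic acid-synthesizing enzyme, fell by 0.76 and 0.50 (limma adjusted p = 0.028). Dimmer second probes of Axin2, Itga4 and Bmp4 lay at or near the floor, and one of Ahr had ratios of −0.03 and −0.34. For Foxf1, the weaker probe had ratios of 0.31 and 0.45. The weaker Ptch1 probe rose from 36.0 to 79.0 in replicate 1 and from 31.6 to 61.2 in replicate 2. Its ratios were 1.13 and 0.95, with all signals below 100. By in situ hybridization, the study describes Ptch1 as apparently somewhat higher with IWP-2. The remaining 3 genes of the set were not called. Bmp4, a BMP ligand gene, had log2 ratios of −0.10 and 0.18, Ptch1, the gene of the hedgehog receptor, had 0.03 and 0.49, and Foxf1, a forkhead transcription factor gene, had 0.20 and 0.54 (limma adjusted p = 0.149). Of all genes tested, 0.809% had a lower mean ratio than Thy1 and 0.412% a lower one than Car3.

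**Figure D3:**
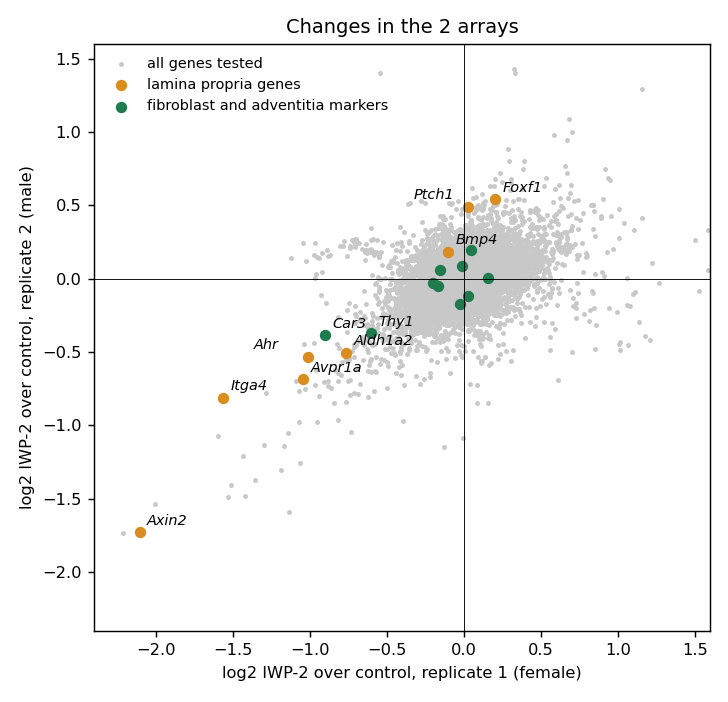
Log2 ratio of IWP-2 over control in replicate 1 (horizontal) against replicate 2 (vertical) for all genes tested (grey; 18 of them lie outside the axes), the 10 fibroblast and adventitia markers (green) and the 8 further LP genes of the study (orange). Thy1 and Car3 lie at the upper end of the LP genes that fell, and the other 8 green points lie within the grey cloud around 0.

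Genes of elastic fibres and microfibrils, the structures to which Mfap4 and Mfap5 belong, were tested in full (23 of 23). Of these, 2 were called lower by limma and 0 higher, against 0.886% and 0.363% of all genes tested. A mean below 0 was found for 19, against 53.0% of all genes, and the median was −0.10. At an unadjusted p below 0.05, 9 were lower and 1 was higher, against 6.64% and 6.27% of all genes. Ltbp1, which encodes a protein that holds latent TGFβ in the matrix, fell from 1439 to 878 in replicate 1 and from 1288 to 932 in replicate 2 (limma adjusted p = 0.0331). A second Ltbp1 probe lay at the floor in every channel. Efemp1, the gene of fibulin 3, fell from 705 to 496 and from 890 to 673 (limma adjusted p = 0.0406). Fn1 (fibronectin), the brightest gene of the list, had ratios of −0.49 and −0.26 and did not pass (limma adjusted p = 0.109). Fbln1 (fibulin 1), also bright, had ratios of −0.12 and −0.08.

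Among 30 other fibroblast genes, 28 were tested, 1 was called lower by limma and 0 higher, and the median log2 ratio was −0.04. At an unadjusted p below 0.05, 4 were lower and 3 were higher, against 6.64% and 6.27% of all genes. The gene called was Il33, an alarmin cytokine made by fibroblasts and epithelia, whose signal fell from 4200.5 to 2802 in replicate 1 and from 4827 to 2841 in replicate 2 (limma adjusted p = 0.0157). The brightest genes of this list were Medag, known from visceral fat, with ratios of 0.08 and 0.13, and Vim (vimentin), the intermediate filament of mesenchymal cells, with ratios of −0.10 and 0.15. Neither passed the limma test.

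Markers of other cell types in the ureter moved beside these genes and are given for the same pools. The 8 urothelial markers all had a mean above 0 (median 0.29), and 0 were called by limma. At an unadjusted p below 0.05, 6 were higher, against 6.27% of all genes. Their summed signal was 93137 to 113572 in the control and 121938 to 122937 in the IWP-2 pools. The brightest of them, the plaque protein genes Upk3a and Upk2, had ratios of 0.24 and 0.00, and of 0.48 and 0.12. The 8 smooth muscle markers had a median of 0.14, a sum of 84586 to 99138 in the control and 99071 to 99136 in the IWP-2 pools, and 0 calls by limma (1 higher at an unadjusted p below 0.05). Acta2 (smooth muscle actin) had ratios of −0.04 and 0.14, and Tagln (transgelin) had 0.06 and 0.26. The medians were 0.15 for macrophage markers (5 of 6 tested), −0.06 for endothelial markers (6 of 6) and −0.10 for mesothelial markers (4 of 5), with 0 calls by limma in each. The macrophage genes Lyz2 (lysozyme) and Mrc1 (mannose receptor) had ratios of 0.33 and 0.28, and of −0.29 and −0.01. The endothelial genes Cdh5 (VE-cadherin) and Kdr (a VEGF receptor) had −0.17 and −0.04, and −0.20 and 0.14. Of the mesothelial list, the brightest genes, Krt19 (a keratin) and Upk3b (a uroplakin), had 0.16 and 0.02, and 0.53 and 0.15. Msln and Wt1 went the other way, with −0.22 and −0.67, and −0.10 and −0.50, and Lrrn4 lay at the floor. At an unadjusted p below 0.05, 2 genes of the mesothelial list were lower and 1 was higher. By the same measure, 2 macrophage markers were higher and 0 lower, and 0 endothelial markers were lower or higher. How much of the change of Thy1 or Car3 goes with these cell types was not tested.

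**Figure D4:**
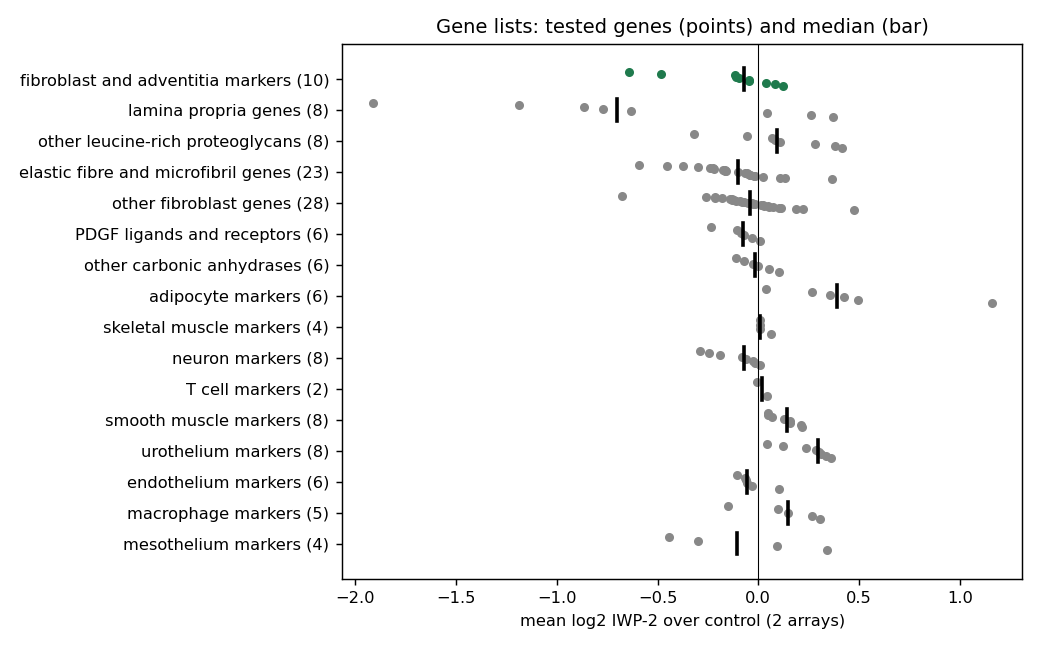
Mean log2 ratio of IWP-2 over control of the 2 arrays for each tested gene (points) of the fibroblast and adventitia markers (green) and of 15 other gene lists (grey), with the number of tested genes in parentheses and the median as a bar. The median of the markers is close to 0, with Thy1 and Car3 to its left, and that of the 8 further LP genes is −0.70.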

How the data were processed

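Total RNA of P0 ureter explants was compared on 2 two-colour Agilent arrays, 1 control and 1 IWP-2 pool on each. The intensities that the authors deposited are processed signals of Feature Extraction (12.2.0.7 in the file headers, 10.7.3.1 in the submitters' processing notes), which subtracts the background and normalizes the dyes. The deposited files also hold mean and local background intensities, the input of the normexp alternative, and log10 ratios (red over green), used to check directions. The deposited series table holds a score per probe, a signed fold change to 1 decimal, whose scale and direction were found by comparison with the arrays (same sign for 100% of genes past 1.2-fold). The median of each of its columns was 1.

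Control spots (17263) and outlier-flagged spots (5235 and 5075) were left out, and 0 spots were saturated. Loess in limma 3.58.1 (R 4.3.3) normalized the signals within arrays. The linear mean of a probe's spots was then floored at 15 and put on the log2 scale. The brightest probe stood for a gene. Log2 ratios of IWP-2 over control, turned for the dye swap, were tested against 0 with lmFit and eBayes (1 residual degree of freedom, 5.49 prior) over genes with an arithmetic mean signal above 100 in a condition, with Benjamini-Hochberg adjustment at 0.05. The number of arrays, 2, limits the precision. Replicates were separate pools. Each ratio was formed within an array, so the replicates were paired by construction.

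The 10 genes and the 16 gene lists, 1 of which is not reported here, were chosen with earlier results of these data known. The choice of linear averaging and of the arithmetic mean followed an earlier processing of these files, and was made after averaging on the log2 scale and a geometric mean had been tried and the result for Thy1 had been seen. Named from each list reported were genes called or past the filter and the 2 brightest. Adipoq, Cfd, Plin1, Retn, Pparg, Cidea, Lipe, Tubb3, Prph, Msln, Wt1 and the LP genes Ptch1 and Foxf1 were named after their values were seen. Kera, Omd and Car1 were named by position. No further per-sample column was left unmapped (0). The steps were tested on simulated data. Alternatives covered background correction, normalization, filters, floor, probe summary, intensity trend, pairing, the series table and leaving out an array. Probe positions are those of the files, and gene order comes from RefSeq.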

Additional observations from a re-analysis of the deposited data

Results flagged for a closer look

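Pi16, Lum and Ogn changed in opposite directions in the female and the male array. The log2 ratio of IWP-2 over control in replicate 1 minus that in replicate 2 was 0.14 for Pi16, −0.21 for Lum and −0.092 for Ogn. The difference was not tested, dye and sex change together between the arrays, and 45.2% of all genes tested had opposite signs.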

How the results depend on the processing

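The number of the 10 genes called lower by limma, 0 as reported, was 2 with normexp background correction, 2 with an intensity trend in eBayes, 1 with scale normalization between arrays and, in alternatives chosen after seeing the data, 1 with spots averaged on the log2 scale and 1 with that averaging and a geometric mean in the filter. The adjusted p of Thy1 was 0.0499 and 0.0476 in the latter 2 and 0.0521 with the geometric filter alone. Over 17 alternatives it ranged from 0.0035 to 0.834, and that of Car3, called in 2, from 0.00754 to 0.977. The number of other list genes called, 8 as reported, was 4 without further normalization within arrays, 0 without a filter on signal, 0 with detection above background as the filter, 2 with the mean of all probes, 20 with the trend, 1 with no replicate block (control and IWP-2 pools compared unpaired) and 13 on the deposited series table. Leaving out a replicate, which gives no test, the number of the 10 genes past the filter was 0 (replicate 2 alone) to 2 (Thy1 and Car3 in replicate 1 alone). In 1 array alone, the sign of the uncalled ratios of Lum (0.06 without replicate 1), Pi16 (0.02 without replicate 2) and Ogn (−0.0089 without replicate 2) turned, and none of the 8 list genes called changed direction under the alternatives run. Over all genes, 127 were called lower and 52 higher as reported. These counts were 108 and 85 with median centring, 154 and 100 with normexp, 85 and 32 without further normalization, 50 and 17 with the mean of probes, 90 and 32 with each probe tested, 220 and 183 with the trend, 8 and 0 without the block, 698 and 623 on the series table, and 0 and 0 without a filter or with detection above background. The cause of these shifts was not tested. No slide block was fitted, since with 2 arrays it could not be separated from the replicates.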
